A study of Mus musculus with 2 samples.

Results

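1700001L05Rik is a long noncoding RNA gene of the mouse, annotated as a lincRNA (ENSMUSG00000075511.9), and in these testes it was a host of small RNAs. It lies on the minus strand of chromosome 15, from 83353847 to 83367282 (GRCm38), between the protein-coding genes Arfgap3 and Pacsin2, and no annotated gene overlaps it. The small RNAs described here are all listed sequences of 18 to 40 nt that match one of its 4 annotated transcripts exactly, on either strand. The gene was 1 of 55450 in the annotation and was selected on its count of 24 to 30 nt reads in these same libraries, which ranked among the highest. Its level and its ratio between the libraries are therefore given as a description.

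The testes came from mice aged 11 days, on a mixed C57Bl6/129 background, that were either Tdrkh-/- or Tdrkh+/-. For each genotype 5 pairs of testes were pooled into 1 small RNA library. In the mutant allele exons 2 to 4 of Tdrkh, among them the exon with the start codon, were excised with an EIIa-Cre transgene that was later bred out, and the heterozygous controls carry 1 such allele. The labels speak of 2 independent knockout lines and do not say which gave these testes. The deletion is present in every cell of the animal, so the libraries do not single out a cell type. Depth was 60973266 listed reads for Tdrkh-/- and 43172204 for Tdrkh+/-, and 2482320 and 2355656 of them came from microRNAs. Sense reads that began in the excised exons of Tdrkh numbered 0 in Tdrkh-/- and 17 in Tdrkh+/-. A single library stands for each genotype, so no difference could be tested or checked in replicates, and every interval given reflects counting error alone.

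PIWI-interacting RNAs (piRNAs) are small RNAs of germ cells that guide PIWI proteins. A long single-stranded transcript is cut into intermediates whose 5′ end usually is a U, a PIWI protein holds that end, and the 3′ end is then shortened to the size the protein protects. Tdrkh carries a Tudor domain and KH domains, sits on the mitochondrial surface, binds PIWI proteins and, in studies of mouse and silkworm, takes part in this last shortening. Before the pachytene stage of meiosis, mouse piRNAs come mainly from messenger RNAs, above all their 3′ untranslated regions, and from transposons and other repeats, and long noncoding precursors dominate from that stage on.

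The sequences that carried most reads of the gene came from a stretch of 150 bases, shown because it held 60.1% of the 24 to 30 nt reads of the gene in Tdrkh+/- and 82.3% in Tdrkh-/-. It lies at chr15:83354872-83355021 (GRCm38, minus strand), bases 3795 to 3944 of the transcript 1700001L05Rik-203. Capitals mark the 5 bases at which at least 1% of the 24 to 30 nt reads of Tdrkh+/- began, all of them T, read as U in RNA.
Window: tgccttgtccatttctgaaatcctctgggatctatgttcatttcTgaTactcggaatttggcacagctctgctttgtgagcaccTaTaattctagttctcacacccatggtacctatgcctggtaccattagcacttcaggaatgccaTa

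The most frequent RNA at each of the leading 5′ ends is shown next, since at some of them it ended at another base in Tdrkh-/-. Each is named by the base of 1700001L05Rik-203 at which it starts. The capital at the front is the 5′ base, and capitals at the back are bases of the Tdrkh-/- form that lie beyond the 3′ end of the Tdrkh+/- form.
Start 3839, both genotypes: Tgatactcggaatttggcacagctctgctt
Start 3842, both genotypes: Tactcggaatttggcacagctctgctt
Start 3881, Tdrkh+/-: Taattctagttctcacacccatggtacc
Start 3881, Tdrkh-/-: TaattctagttctcacacccatggtaccTA
Start 3879, Tdrkh+/-: Tataattctagttctcacacccatggtacc
Start 3879, Tdrkh-/-: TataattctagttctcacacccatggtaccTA
Start 3548, Tdrkh+/-: Tacgaaattccagtagactctgacttc
Start 3548, Tdrkh-/-: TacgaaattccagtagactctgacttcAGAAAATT
Start 3943, Tdrkh+/-: Taaagagcatctctgagggccctgaggt
Start 3943, Tdrkh-/-: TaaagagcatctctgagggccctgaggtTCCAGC
Start 1355, both genotypes: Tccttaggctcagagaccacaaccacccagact
Start 3544, both genotypes: Tagttacgaaattccagtagactctgact
Start 3537, both genotypes: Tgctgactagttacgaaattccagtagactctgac

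The RNAs of the gene matched almost entirely its own strand and almost never another annotated gene. In Tdrkh-/- 2601 distinct sense sequences held 144157 reads and no antisense read was listed, which allows an antisense share of up to 0.00208%. In Tdrkh+/- 5889 distinct sense sequences held 315704 reads, and 2 antisense sequences held 4 reads. Sequences that also match another gene held 9 sense reads, all in Tdrkh+/-. With so few antisense reads, the overlaps of opposite strands that mark ping-pong amplification were not computed. The 2 libraries had 1551 sense sequences in common, which accounted for 95.9% of the reads from Tdrkh-/- and 91.5% from Tdrkh+/-. Sequences read once made up 0.175% and 0.489% of the reads, so values weighted by reads rest mainly on sequences read more than once. Among distinct sequences, 252 of 2601 in Tdrkh-/- and 1544 of 5889 in Tdrkh+/- were read once. These weigh more, and unequally, where each distinct sequence is counted once.

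The gene gave fewer RNAs of piRNA size in Tdrkh-/- and somewhat more long ones. Reads of 24 to 30 nt numbered 76639 in Tdrkh-/- and 274062 in Tdrkh+/-. Per 1000 microRNA reads, which are made without the piRNA pathway and serve as the scale, these were 30.9 and 116, which gives a log2 ratio (Tdrkh-/- over Tdrkh+/-) of -1.91 (95% exact interval -1.93 to -1.90). Reads of 31 to 37 nt numbered 56515 and 35261, or 22.8 and 15.0 per 1000 microRNA reads, a log2 ratio of 0.61 (0.59 to 0.62). Fewer cells that make these RNAs and less RNA per cell cannot be told apart in pooled testes. The higher level of long RNAs depended on the scale and on how reads were weighed, with a log2 ratio of 0.03 per transcript-matching read and -0.34 with each distinct sequence counted once. The long reads for each 24 to 30 nt read, which need no scale between libraries, were 0.737 in Tdrkh-/- and 0.129 in Tdrkh+/-, a 5.73-fold difference.

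Length by length, the RNAs of the gene were not simply shifted as a block. Its Tdrkh-/- reads had a mean length of 31.3 nt and most often measured 30 nt, while its Tdrkh+/- reads had a mean of 28.5 nt and most often measured 28 nt. At 28 nt there were 6890 reads in Tdrkh-/- and 93428 in Tdrkh+/-, a log2 ratio of -3.84. At 26 nt the log2 ratio was -3.73, from 1908 and 23973 reads. At 30 nt the libraries were far closer, at 37838 and 45787 reads (log2 ratio -0.35). Single RNAs set much of these values. Of the 30-nt reads of Tdrkh-/-, 23438 came from start 3839 and 9984 from start 3881. Start 3842 gave 18668 of its 21059 reads of 27 nt. In Tdrkh+/-, start 3881 gave 47966 of the 28-nt reads. Every length from 18 to 31 nt had a ratio below 0, and every length from 32 to 40 nt had one above 0, with the highest, 2.34, at 37 nt, from 7181 and 1347 reads. The sign at 32 nt, 0.46, rests on 10934 and 7549 reads. Reads of 18 to 23 nt were few, 1632 and 2832.

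**Figure D1:**
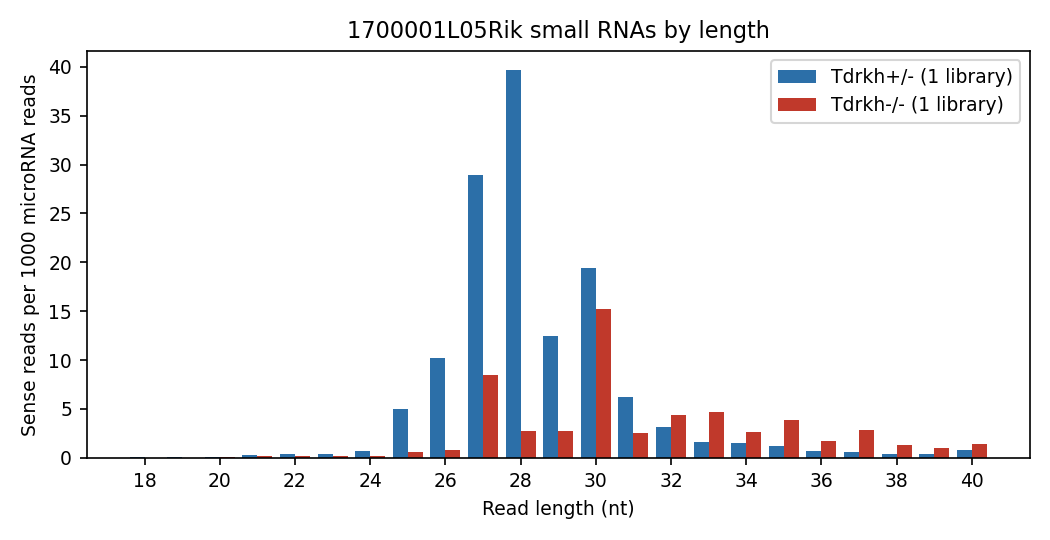
Sense reads of 1700001L05Rik at each length from 18 to 40 nt (x axis, nt) per 1000 microRNA reads (y axis), with 1 bar per library. The Tdrkh+/- bars peak at 28 nt, the Tdrkh-/- bars peak at 27 and 30 nt, and the Tdrkh-/- bars are the taller ones from 32 nt upward.

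Beside the other hosts, 1700001L05Rik was lower at 24 to 30 nt to an ordinary degree and stood among those with the smaller gains of long reads. Hosts were the 4008 genes, protein-coding or long noncoding, in which the 24 to 30 nt reads of both libraries summed to 500 or more. In Tdrkh-/-, 73.3% of them were at least 2-fold lower at 24 to 30 nt, 78.0% lay above the 2-fold mark at 31 to 37 nt, and 95.1% were higher there by any amount. 1700001L05Rik was 3.77-fold lower at 24 to 30 nt, which is past that mark, and 1.52-fold higher at 31 to 37 nt, which is not. The median log2 ratios over all hosts were -1.57 and 1.73, and 35.1% of hosts had a lower ratio at 24 to 30 nt, whereas 12.3% had a lower one at 31 to 37 nt. The ratio of long to shorter reads was higher in Tdrkh-/- in 98.5% of hosts, with a median log2 change of 3.32 against 2.52 here. Among the 423 long noncoding hosts the medians were -1.34 and 2.12, with 58.2% at least 2-fold lower in the shorter class. In the long class 86.1% of the long noncoding hosts were higher and 73.3% at least 2-fold higher, and in 95.3% the ratio of long to shorter reads was higher. By its number of 24 to 30 nt reads the gene ranked 2 among all hosts in Tdrkh+/- and 3 in Tdrkh-/-.

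The other abundant hosts named here had higher log2 ratios in the long class than 1700001L05Rik, though Klf13 differed from it more in the shorter class. For Fth1, which encodes the ferritin heavy chain, the log2 ratio was -1.23 in the shorter class and 3.02 in the long one. The tyrosine kinase gene Abl2 had -1.53 and 2.10, and the transcription factor gene Klf13 had -3.45 and 0.97. The 5 genes nearest to 1700001L05Rik in these 2 ratios, over 2 libraries and among 581 other genes with at least 5000 such reads, were Fam53c (-2.001 and 0.57), Adarb1, an adenosine deaminase that edits RNA (-2.03 and 0.44), Kif1b, a kinesin motor (-2.18 and 0.60), Hist1h2bb, a histone H2B gene (-1.92 and 0.90), and Uggt1, a glucosyltransferase of the endoplasmic reticulum (-2.13 and 0.38). All of these carried far fewer reads, from 4775 to 9197 of 24 to 30 nt in Tdrkh+/-.

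The RNAs came from the last exon of the longest transcript. 1700001L05Rik-203 has 3 exons and 4969 nt, and its sequences held 98.2% of the sense reads in Tdrkh-/- and 97.8% in Tdrkh+/-; 97.5% and 96.6% matched this transcript alone. Its last exon, of 4191 nt (83353847 to 83358037), was the source of 99.1% of the shorter Tdrkh-/- reads and 97.5% of the shorter Tdrkh+/- reads. Exon 1, of 293 nt, held 17 and 691 such reads, a log2 ratio of -5.42 (-6.21 to -4.73), and exon 2, of 485 nt, held 62 and 560, a log2 ratio of -3.25 (-3.65 to -2.87). In the last exon the ratio was -1.89. Long reads were also fewer in Tdrkh-/- in exon 1, with 43 and 77 reads, and in exon 2, with 91 and 196, while in the last exon they numbered 54818 and 34087. Parts of the gene outside the longest transcript had 609 and 5702 reads of 24 to 30 nt.

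Within the last exon a few places outweighed all others. The last 1500 nt of the transcript, 30.2% of its length, gave rise to 89.9% of the shorter reads in Tdrkh-/- and 88.4% in Tdrkh+/-, whereas its last 500 nt held 1.55% and 6.55%. Of the long reads the last 1500 nt held less, 60.5% in Tdrkh-/- and 83.2% in Tdrkh+/-. Bases 3801 to 3900 alone held 62266 of the shorter reads in Tdrkh-/- and 159294 in Tdrkh+/-, and bases 3501 to 3600 held 1848 and 36348. In stretches of 100 nt over the whole transcript, with no minimum of reads, the level at 24 to 30 nt was lower in Tdrkh-/- in 50 of 50 and at least 2-fold lower in 47. Bases 3801 to 3900, which weigh most in the whole gene, had a log2 ratio of -1.43. The ratio closest to 0 was -0.12, at bases 2101 to 2200, with 3004 and 3088 reads. Long reads were higher in 28 of the 50 stretches, at least 2-fold in 18, and lower in 22. The highest ratio, 3.40, was that of bases 1301 to 1400, with 12869 long reads in Tdrkh-/- and 1158 in Tdrkh+/-.

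**Figure D2:**
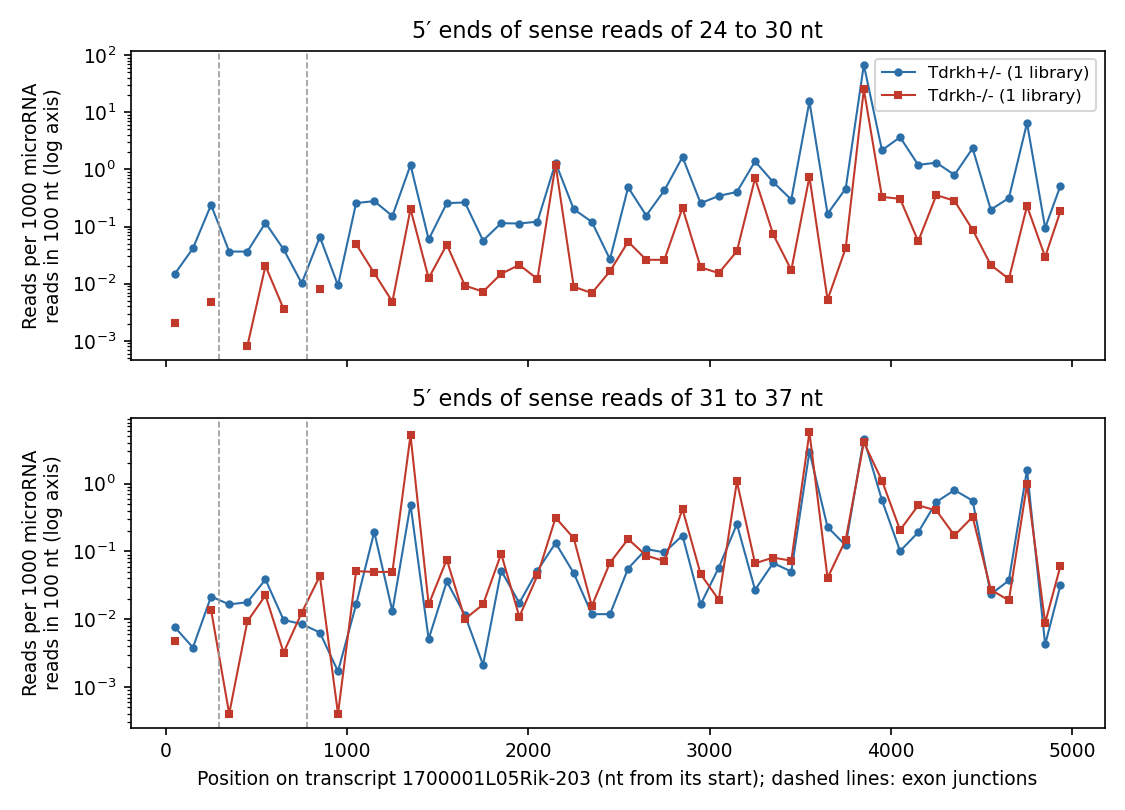
5′ ends of sense reads of 24 to 30 nt (upper panel) and 31 to 37 nt (lower panel) per 100 nt of 1700001L05Rik-203, in reads per 1000 microRNA reads on a log axis, with 1 line per library, position from the start of the transcript on the x axis and gaps where no read was listed. Both lines of the upper panel peak at bases 3801 to 3900. Where it is drawn, the Tdrkh-/- line of that panel runs below the Tdrkh+/- line, most closely at bases 2101 to 2200.

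A handful of 5′ ends carried most RNAs of the gene in both genotypes. The 24 to 30 nt reads began at 461 positions in Tdrkh-/- and 1581 in Tdrkh+/-, from unequal numbers of reads, 76639 and 274062. The 10 leading positions of each library held 86.7% and 72.3% of these reads. They held 68.9% and 60.8% of the long reads, and 73.0% and 68.8% of the reads of 24 to 40 nt. The first position alone did not show the same order throughout. It took 34.3% of the shorter reads in Tdrkh-/- and 25.7% in Tdrkh+/-. For long reads it took 20.7% and 23.5%, and for reads of 24 to 40 nt 20.4% and 25.5%. For 24 to 30 nt reads start 3839 was the first in both, with 26255 such reads from Tdrkh-/- and 70347 from Tdrkh+/-. Start 3881 had 12870 and 59073. Of the 6 leading ends of Tdrkh+/-, starts 3548, 3879 and 3544 were the furthest below the control. Start 3548 had 1083 and 22326 reads (log2 ratio -4.44), start 3879 had 400 and 10242 (-4.75), and start 3544 had 376 and 7596 (-4.41).

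Start 3842 went the other way. Its shorter reads numbered 20812 in Tdrkh-/- and 10714 in Tdrkh+/-, a log2 ratio of 0.88 (0.85 to 0.92), although start 3839, 3 nt before it, had -1.50 (-1.52 to -1.48). Its long reads numbered 4875 and 507, a log2 ratio of 3.19. Among the 154 ends with at least 100 reads of 24 to 30 nt in both libraries together, 7 were higher in Tdrkh-/-, start 3269 at least 2-fold, with 231 and 51 reads. Most ends can reach that sum through Tdrkh+/- alone, so the number of lower ends is not read as a result. They lay in 4 places, at starts 2105 and 2106, 3269 and 3270, 3842 and 3843, and 4391.

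The 2 leading 5′ ends weighed on the values of the whole gene, though not on their direction. Without starts 3839 and 3881 the log2 ratios were -2.02 at 24 to 30 nt and 0.94 at 31 to 37 nt, and the difference in long reads per shorter read was 7.77-fold. Without start 1355, which had 11710 of the long reads in Tdrkh-/- (20.7%) and 891 in Tdrkh+/-, the log2 ratio at 31 to 37 nt was 0.31.

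The same 5′ ends gave longer RNAs in Tdrkh-/-. Of its 31 to 37 nt reads, 98.2% (98.0% to 98.3%) opened with the same 24 nt as a shorter Tdrkh+/- read of the gene. Starts moved downstream by 1 to 10 nt gave shares with a median of 73.5%, and the largest of these was 89.7%. Over distinct sequences, each counted once, the share was 84.1%, whereas moved starts gave a median of 58.3% and at most 64.5%. Of the long Tdrkh+/- reads, 97.8% opened like a shorter read of their own library. At the 120 starts with at least 50 reads of 24 to 40 nt in each library, the mean length was greater in Tdrkh-/- at 118, by a median of 2.72 nt (quartiles 1.28 and 4.23 nt). The other 2 starts differed by -0.59 and -0.54 nt. The most frequent length was greater in Tdrkh-/- at 73 starts, the same at 40 and smaller at 7. The median share of an end's reads that had its most frequent length was 54.8% in Tdrkh-/- and 46.3% in Tdrkh+/-. Longer reads were general among hosts. Taken by whole gene at 24 to 40 nt, the mean length in Tdrkh-/- exceeded that in Tdrkh+/- by a median of 3.86 nt over the 4008 hosts. Over the 423 long noncoding hosts the median was 3.37 nt. For 1700001L05Rik the 2 means were 31.4 and 28.5 nt.

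**Figure D3:**
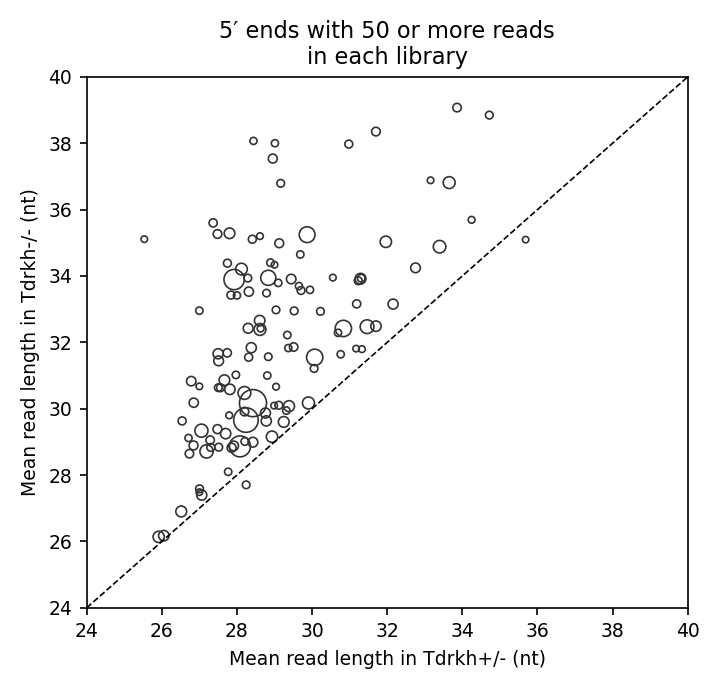
Mean read length in Tdrkh-/- (y axis, nt) against that in Tdrkh+/- (x axis, nt) for the 120 starts with at least 50 reads of 24 to 40 nt in each library; each circle is a start, larger circles have more reads, and the dashed line marks equal length. All but 2 circles lie above the line.

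At start 3839 the 30-nt form had nearly the same level in both libraries, while all shorter forms and the 31-nt form were scarce in Tdrkh-/-. Its 30-nt RNA, the first sequence of the list above, had 23438 reads in Tdrkh-/- and 20782 in Tdrkh+/-, a log2 ratio of 0.10 (0.07 to 0.12). The 28-nt form had 1632 and 16726 reads, the 27-nt form 232 and 15471, and the 26-nt form 140 and 8390, with log2 ratios of -3.43, -6.13 and -5.98. The 31-nt form had 198 and 6586 reads, a log2 ratio of -5.13, and long reads of this start, 23.5% of all long Tdrkh+/- reads of the gene, numbered 2457 and 8280 in all, a log2 ratio of -1.83. The 32-nt form had 1297 and 1295 reads. The 30-nt form thus made up 80.4% of the reads of 24 to 40 nt at this start in Tdrkh-/- and 26.02% in Tdrkh+/-. The RNA of start 3842 shown above ends at the same base. It had 18668 reads in Tdrkh-/- and 5064 in Tdrkh+/-, while its 28-nt form, longer by 1 nt, had 81 and 3671.

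At starts 3881 and 3548 the most frequent form differed. Start 3881 gave mainly 28-nt RNAs in Tdrkh+/-, 47966 reads against 2567 in Tdrkh-/-, and mainly 30-nt RNAs in Tdrkh-/-, 9984 reads against 2740. Their log2 ratios were -4.30 and 1.79. Start 3879, 2 nt upstream, ended at the same 2 bases, with its 30-nt form in front in Tdrkh+/- (87.8% of its reads) and its 32-nt form in Tdrkh-/- (72.8%). Start 3548 gave a 27-nt RNA in Tdrkh+/-, 16864 reads against 202 in Tdrkh-/-, a log2 ratio of -6.46, and a 35-nt RNA in Tdrkh-/-, 2524 reads against 585. At start 3943 the most frequent forms were 28 nt in Tdrkh+/- and 34 nt in Tdrkh-/-. Start 1355 had a most frequent form of 33 nt in both, with 6805 reads in Tdrkh-/- and 368 in Tdrkh+/-. Start 3537, whose most frequent form was 35 nt in both, had 2603 and 119 reads of that form. At start 3544 the 29-nt form led in both, with 216 reads in Tdrkh-/- (19.5%) and 3649 in Tdrkh+/- (43.6%). Its 39-nt form had 209 and 42 reads, and the mean length at this start was 33.9 and 28.8 nt.

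**Figure D4:**
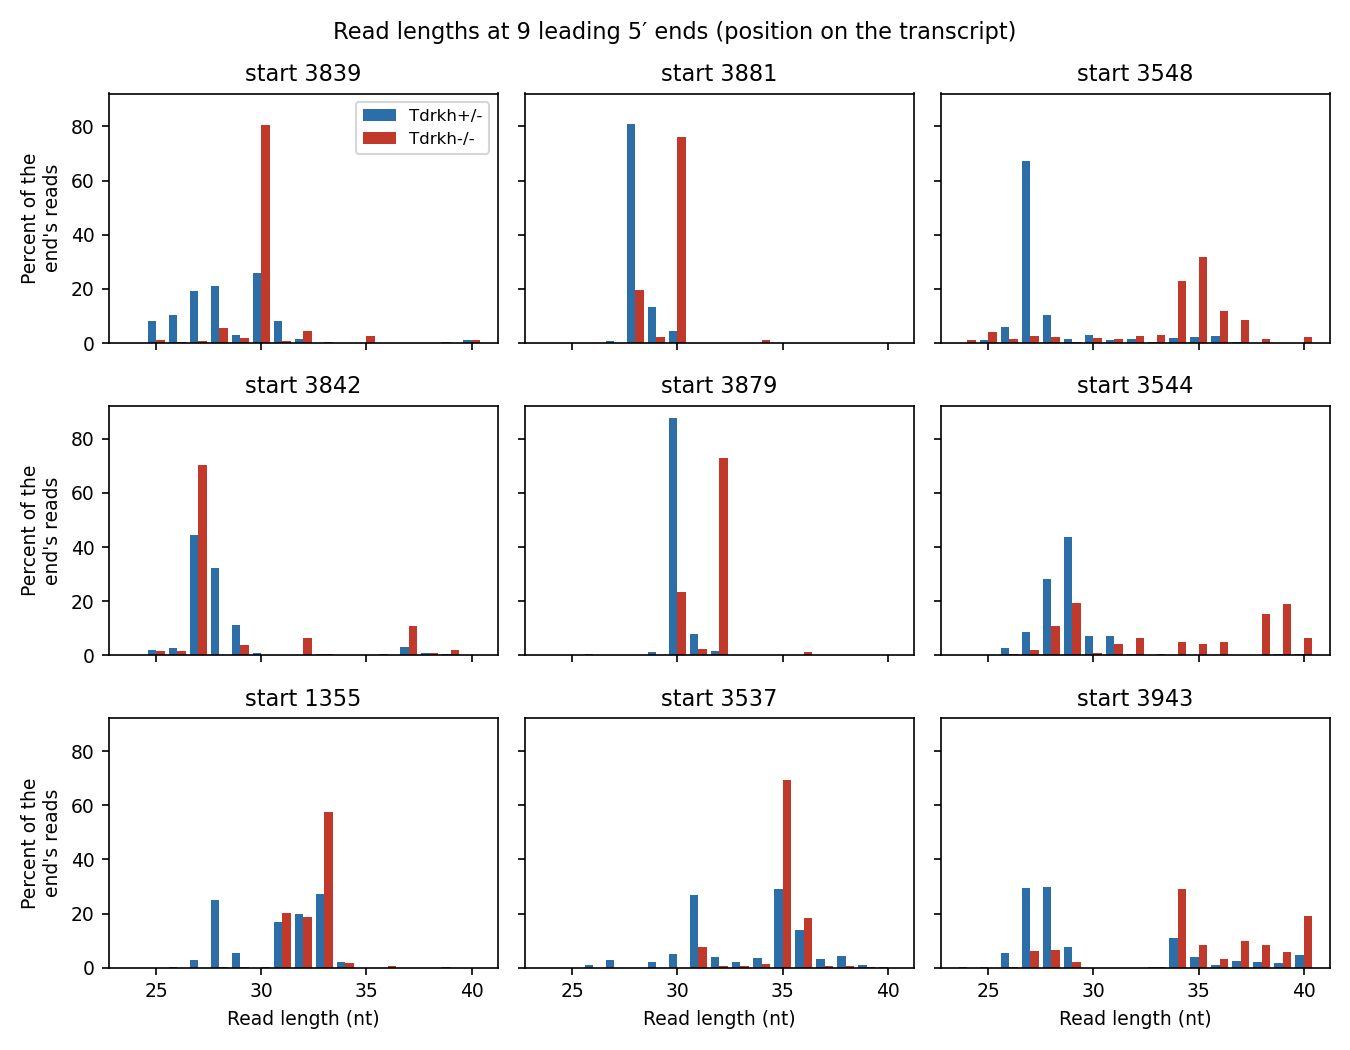
Share of the reads of 24 to 40 nt (y axis, percent) at each length (x axis, nt) for 9 leading 5′ ends, 1 panel per start on 1700001L05Rik-203, with 1 bar per library. The first 6 panels are the leading starts of 24 to 30 nt reads in Tdrkh+/- and the last 3 those of 31 to 37 nt reads in Tdrkh-/- not among them; the tallest Tdrkh-/- bar lies to the right of the tallest Tdrkh+/- bar at starts 3881, 3548, 3879 and 3943, and at the same length at starts 3839, 3842, 3544, 1355 and 3537.

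Seen from their 3′ ends, the shorter RNAs of Tdrkh-/- were drawn together at 1 base. Base 3868 of the transcript was the last base of 42972 reads of 24 to 30 nt in Tdrkh-/-, 56.1% of them, nearly all in the 30-nt form of start 3839 (23438 reads) and the 27-nt form of start 3842 (18668 reads). In Tdrkh+/- it ended 26229 such reads, 9.57%. Base 3908 led in Tdrkh+/-, with 58615 reads against 3052 in Tdrkh-/-. Base 3910, 2 nt further on, had 10412 reads in Tdrkh-/- and 3415 in Tdrkh+/-. Base 3574, the last base of the 27-nt form of start 3548, had 225 and 18873. Of these leading 3′ ends, bases 3868, 3908 and 3910 are followed by U in the transcript and base 3574 by A. The first 4 of the 3′ ends with most long reads in Tdrkh-/-, bases 1387, 3571, 3878 and 3582, are all followed by U, and the fifth, base 1385, by C. The stronger focus of 3′ ends in Tdrkh-/- was not general across lengths. The first 3′ end took 56.1% of the shorter reads in Tdrkh-/- and 21.4% in Tdrkh+/-, but 12.5% and 18.8% of the long ones. The 10 leading 3′ ends held 85.8% and 63.7% of the shorter reads and 52.9% and 49.8% of the long ones. Over reads of 24 to 40 nt the first took 30.4% and 18.8%, and the 10 leading ones held 59.36% and 59.39%.

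The base after the 3′ end was U more often in Tdrkh-/-. U makes up 29.0% of the bases of 1700001L05Rik-203. Among 24 to 30 nt reads the next base was U in 91.6% of reads in Tdrkh-/- and 54.9% in Tdrkh+/-, and among 31 to 37 nt reads in 62.6% and 30.6%. At the positions 2 to 10 bases after the 3′ end the median share of U was 10.3% and 22.7% for the shorter reads and 34.2% and 29.0% for the long ones. The largest share at those positions was 67.1% and 57.3% for the shorter reads and 48.7% and 49.8% for the long ones. In Tdrkh+/- that largest share was above the share at the next base in both classes. Reads at a few ends set these shares, so each distinct sequence was also counted once: the next base was then U in 44.2% (40.8% to 47.6%) and 30.7% (29.2% to 32.2%) at 24 to 30 nt, and in 46.8% (44.0% to 49.6%) and 35.7% (33.4% to 38.2%) at 31 to 37 nt. So counted, the share was higher in Tdrkh-/- at all 17 lengths from 24 to 40 nt, and by reads at 16 of them, the exception being 40 nt. Without the 6 leading 5′ ends of Tdrkh+/- it was 67.8% and 31.95% by reads at 24 to 30 nt. The most frequent RNA was followed by U at 76 of the 120 starts in Tdrkh-/- and at 57 in Tdrkh+/-.

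**Figure D5:**
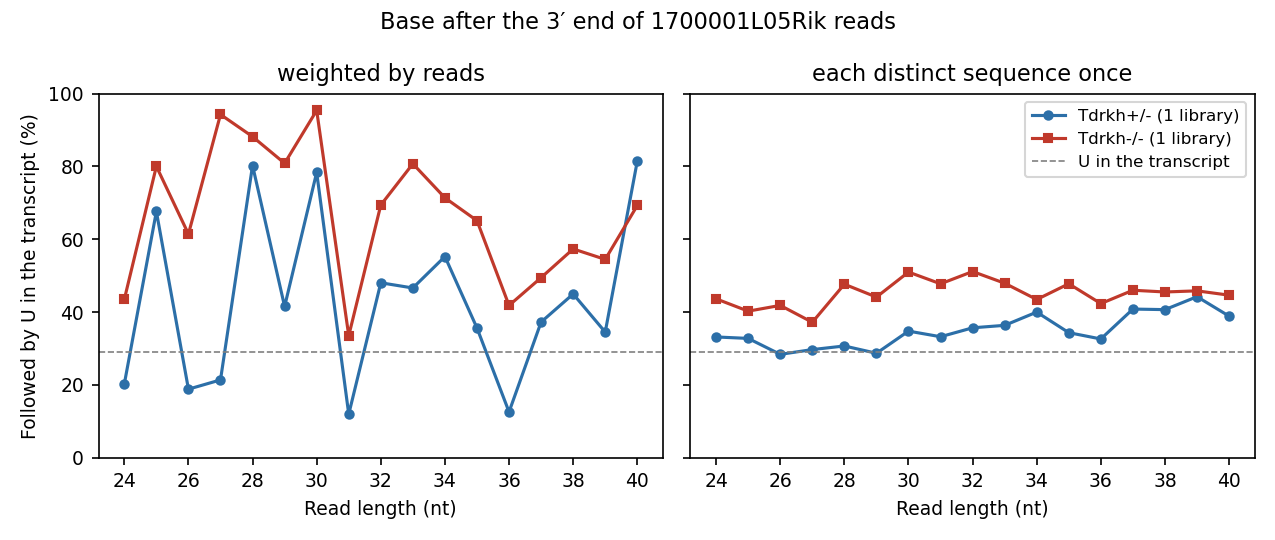
Share of reads (left panel) or of distinct sequences (right panel) whose next transcript base is U (y axis, percent) at each read length from 24 to 40 nt (x axis, nt), with 1 line per library; the dashed line is the share of U in the transcript. In the right panel the Tdrkh-/- line lies above the Tdrkh+/- line at all 17 lengths.

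Adjoining RNAs, in which a 3′ end is directly followed by the next 5′ end, were counted over the transcript. Of the 676 positions at which a long Tdrkh-/- read ended, 21.01% were followed at the next base by the 5′ end of a long Tdrkh-/- read. At distances of 2 to 30 nt the share had a median of 14.3% and did not exceed 16.7%. For the 5′ ends of 24 to 30 nt Tdrkh+/- reads after the same 3′ ends the values were 38.6%, 32.2% and 35.2%. Weighted by reads, distance 1 led among the distances for long Tdrkh-/- reads with one another, with 21.3% of the total over 1 to 30 nt. For the shorter Tdrkh+/- reads it ranked 4, with 5.38%, and distance 3 led with 29.2%. Within Tdrkh+/-, the 3′ ends of 24 to 30 nt reads gave 29.7% at the next base and a median of 30.1% further on. The 3′ ends of long Tdrkh+/- reads, followed by 5′ ends of shorter Tdrkh+/- reads, gave 35.3% at the next base. Further on their median was 32.1% and the highest share 36.9%. An example stands in the window above, where the 3′ end at base 3878 of long Tdrkh-/- reads (3156 reads, and 550 in Tdrkh+/-) adjoins start 3879. The same 3′ end lies at distance 3 from start 3881. That start had 59073 reads of 24 to 30 nt in Tdrkh+/-, against 10242 at start 3879.

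The 5′ base of these RNAs was U in both genotypes and at all sizes. Among 24 to 30 nt reads U led 96.8% in Tdrkh-/- and 95.3% in Tdrkh+/-, and among 31 to 37 nt reads 93.8% and 93.7%. With each distinct sequence counted once the shares were 72.9% and 63.0% at 24 to 30 nt, and 70.3% and 69.0% at 31 to 37 nt. The gap of 1.51 points between the libraries at 24 to 30 nt by reads was -0.04 at 26 to 28 nt. An A at position 10, the base that secondary piRNAs favour, stood in 9.44% of the shorter Tdrkh-/- reads and 17.7% of the shorter Tdrkh+/- reads, and in 29.5% and 26.3% with each distinct sequence counted once, beside 25.2% A in the transcript.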

How the data were processed

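Per the labels' protocols, RNA of 15 to 40 nt was cut from a gel and sequenced on an Illumina Genome Analyzer II. For each library the authors deposited a list of distinct sequences, 18 to 40 nt long, with the raw count of each. Bowtie and mm9 appear in the submitters' processing notes. How adapters were trimmed, and any filter, is not given in the sources used here. RNAs over 40 nt are outside the lists.

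All sequences were matched exactly and over their whole length, on both strands, to GENCODE M21 transcripts (GRCm38) (Python 3.11.15, Numba 0.67.0, NumPy 2.4.6). Intervals came from SciPy 1.17.1, tables from pandas 2.3.3 and plots from Matplotlib 3.10.9. No genome sequence was used, so introns, and matches at sites outside the annotated transcripts, were not analysed here. A direct string search of 20200 sequences per library gave 0 differences. MicroRNA reads are sense matches of 18 to 25 nt to microRNA genes that match no structural RNA gene. For the comparison of hosts, structural RNAs, microRNA reads and sequences in more than 20 genes were set aside and reads in several genes divided equally.

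Ratios are Tdrkh-/- over Tdrkh+/- per microRNA read with 95% exact conditional binomial intervals, and shares carry Wilson intervals. The libraries carry no molecular identifiers, so the intervals given, and the limit of 3 counts for a count of 0, cover counting error only. The members, lists, named hosts and alternatives were chosen with earlier results of these data known; leaving out leading 5′ ends was added after seeing the data. Printed sequences are the most frequent RNA per library at the 6 leading starts of 24 to 30 nt Tdrkh+/- reads and at further starts leading the long Tdrkh-/- reads, with the richest 150-base window.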

Additional observations from a re-analysis of the deposited data

Results flagged for a closer look

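Reads of 38 to 40 nt, outside the length classes compared, were flagged because they lay above the level of the control library. Tdrkh-/- had 9371 of them and Tdrkh+/- 3549, a ratio per microRNA read of 2.51 (2.41 to 2.61). Over all sequences of this length that match transcripts, apart from structural RNAs and repeats, the lists held 2996201 and 467668 reads, a ratio of 6.08, so the gene lay below the value of the whole libraries. Their 5′ base was U in 91.5% and 93.2%.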

How the results depend on the processing

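Of 49 values under other settings, 25 stayed within the interval of the reported value, 22 moved beyond it in the same direction and 2 changed sign. Leaving out or dividing sequences that match other genes could hardly move a value, since such sequences held only 9 sense reads. The values that stayed include those settings. For the median length difference the interval used, not printed here, reflects the spread over starts and not counting error. With each distinct sequence counted once, the log2 ratio at 24 to 30 nt was -2.23, that at 31 to 37 nt turned to -0.34, the log2 change of the long to shorter ratio was 1.88, the shared 5′ ends 84.1%, the median length difference 1.5 nt and the gap in 5′ U 9.91 points. With windows of 26 to 28 and 33 to 36 nt the values were -2.71, 1.37, 4.08 and 96.3%, the gap in 5′ U turned to -0.040 points and the gap in the share of the 10 leading ends was 13.1 points. Per read listed the log2 ratios were -2.34 and 0.18, and per transcript-matching read -2.49 and 0.033. Without sequences read once the shared 5′ ends were 97.5%. Without the 2 leading 5′ ends the log2 ratios were -2.02 and 0.94, the log2 change 2.96, the gap in 5′ U 2.39 points and the gap in the 10 leading ends 23.8 points. Without the leading 5′ end of long Tdrkh-/- reads the ratio at 31 to 37 nt was 0.31 and the log2 change 2.22. The cause of these moves was not tested. No paired analysis was possible because each genotype has 1 library, for which no replicate could be left out either.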
